A study of Mus musculus with 8 samples.

Results

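Ryr2 encodes the cardiac ryanodine receptor, and its locus was described here by the CHD4 ChIP-seq peaks that overlapped the gene body plus 10 kb on each side in mouse atria. In build mm10 the gene lies at chr13:11553099-12106945 on the minus strand (assembly GRCm38.p6), so transcription starts at base 12106945 and runs toward lower coordinates for 554 kb. Peaks of the 4 lists that shared at least 1 bp were merged, which gave 190 sites at Ryr2 of 121267 sites in the genome. Of the 190, 77 were called in both control libraries. Ryr2 was chosen by the peak calls themselves, because it had more control-only sites than any other gene, that is, sites called in both control libraries and in neither TBX5 KO library. Every value that compares the groups at this gene is therefore a description and has no test. With 2 libraries against 2, a two-sided exact permutation test cannot give a p below 0.333.

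The study asked where CHD4 sits in postnatal atria with and without TBX5. In all mice the Tbx5 alleles were floxed and AAV9 was injected on postnatal day 2, and the age at collection is not given in the sources used here. The control vector is named for Nppa and EGFP, and the TBX5 KO vector for Nppa and Cre recombinase, which excises floxed DNA. Nppa is active in atrial cardiomyocytes, whereas the tissue was whole right and left atria of mixed cell type, so cells in which the vector is silent are part of every library. By their titles, 2 ChIP libraries were control and 2 were TBX5 KO, and 4 input libraries had no list of their own. The genotype and treatment fields contradict these titles by giving each library the opposite group, and the treatment protocol describes the Cre mice as CHD4 KO, so each direction below rests on the titles. Nothing in the labels says whether the 2 libraries of a group come from separate animals, and the spread between them may be technical. Whether fewer cells carried CHD4 at Ryr2 or each cell carried less cannot be told apart in whole tissue.

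The ryanodine receptor is the calcium release channel of the sarcoplasmic reticulum. During the action potential, calcium that enters through L-type channels opens it, and the calcium it releases drives contraction. Calsequestrin, triadin and junctin regulate it from the lumen, junctophilin holds the reticulum to the plasma membrane, and calmodulin, FKBP12.6 and CaM kinase act on its cytosolic face. Diastolic leak through it is a well-known source of atrial arrhythmia. CHD4 is the motor subunit of NuRD, a complex that slides nucleosomes and deacetylates histones. TBX5 binds T-box motifs and drives atrial cardiomyocyte genes.

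The start of Ryr2 was one of only 4 places at the locus with a peak in all 4 libraries, and the sequence just before it is shown for that reason. The 250 bases before the start are chr13:12106946-12107195, minus strand, from RefSeq (GRCm38.p6). Capitals mark the 132 bases that lay under a peak in every library, and the interval shared by the 4 peaks, chr13:12106839-12107077, went on for 107 bp past the start.
Ryr2 promoter: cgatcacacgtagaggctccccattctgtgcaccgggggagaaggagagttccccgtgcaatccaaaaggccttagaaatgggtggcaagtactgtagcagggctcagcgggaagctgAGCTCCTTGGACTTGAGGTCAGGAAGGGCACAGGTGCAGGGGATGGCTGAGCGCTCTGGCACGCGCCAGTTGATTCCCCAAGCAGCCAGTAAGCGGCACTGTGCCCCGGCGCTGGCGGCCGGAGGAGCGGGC
This stretch had a GC content of 63.2%, against a median of 52.4% over 32851 RefSeq promoters of the same length, and 14 CpG dinucleotides against a median of 6. It held none of the motifs searched on both strands. These were the T-box motif AGGTGT, which 11.8% of the promoters hold, the GATA motif AGATAA (9.99%), the NKX2-5 motif AAGTG (40.7%), the TEAD motif GGAATG (12.6%), the ERR motif AAGGTCA (4.08%), the MEF2 motif (0.508%) and the CArG box (1.47%). That says only that these letters are not in this window.

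CHD4 peaks were abundant along Ryr2 in both control libraries and nearly absent from both TBX5 KO libraries. The lists held 153 peaks at the locus in control 1, 148 in control 2, 4 in TBX5 KO 1 and 9 in TBX5 KO 2. The groups did not overlap, and over the whole lists they did not overlap either. The control libraries were close to each other, while the TBX5 KO libraries differed more in proportion. The means were 150.5 ± 3.54 in control and 6.50 ± 3.54 in TBX5 KO atria (SD, n = 2), a 23.2-fold difference. As a ratio of TBX5 KO to control this is 0.0432, which became 0.0266 without TBX5 KO 2 and 0.101 with every list cut to the same length. Over the whole lists the same comparison gave 1.46-fold, from 99924 and 91520 control peaks and 61173 and 69557 TBX5 KO peaks. Ryr2 thus held 0.153% and 0.162% of the control peaks, and 0.00654% and 0.0129% of the TBX5 KO peaks.

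The bases under peaks differed more than the number of peaks. Peaks covered 129 kb of the 574 kb window in control 1 and 149 kb in control 2, which is 22.4% and 25.9% of it. In TBX5 KO 1 they covered 1.93 kb (0.336%) and in TBX5 KO 2 3.86 kb (0.672%). The control mean was 47.9 times the TBX5 KO mean at Ryr2, against 1.75 times over all peaks of the lists. The few TBX5 KO peaks were also narrow, with a median width of 428.5 bp and 367 bp, against 586 bp and 626 bp for the control peaks of Ryr2. Over the whole lists the medians were 546 and 569 bp in TBX5 KO, against 616 and 628 bp in control. The TBX5 KO medians at Ryr2 rest on only 4 and 9 peaks.

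**Figure D1:**
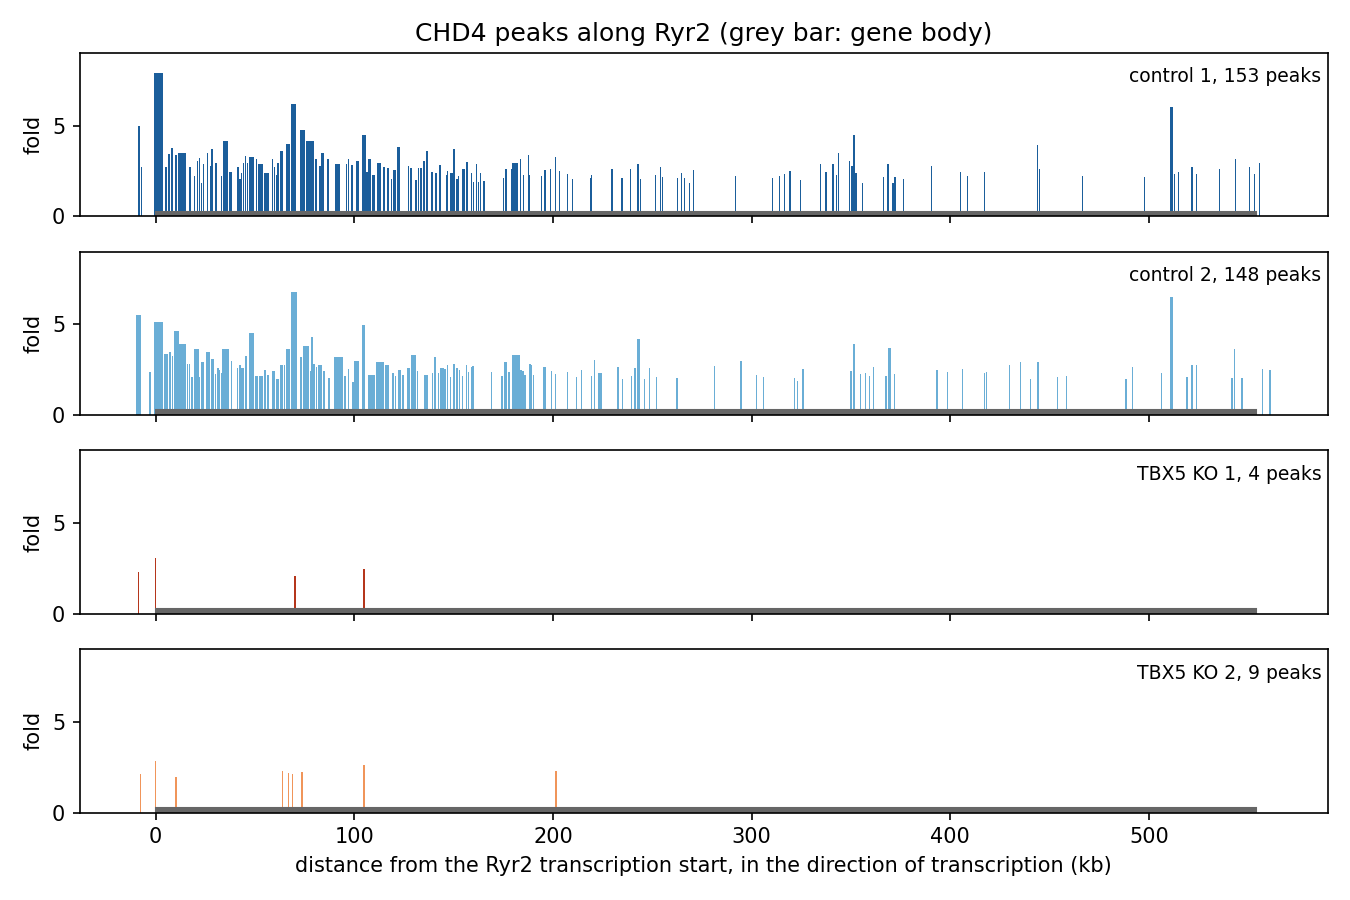
Peaks at Ryr2 in the 4 libraries, with distance from the transcription start in kb on the horizontal axis and the fold of each peak over its local background, as deposited by the authors, on the vertical axis. Bars span the peaks, with the narrowest widened to stay visible; 153 and 148 control peaks crowd toward the start, and the 4 and 9 TBX5 KO peaks all lie within about 202 kb of it.

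Of the 77 sites called in both control libraries, 68 were control-only, which is 88.3%. Neighbouring sites of 1 gene are not independent, and Ryr2 was chosen for this count, so no interval is given. Over all 68137 such sites of the genome the share was 24.9%, over those inside protein-coding genes and more than 1 kb from a gene end it was 31.1%, and over the rest of chromosome 13 it was 26.4%. A further 5 Ryr2 sites (6.49%) were called in TBX5 KO 2 but not in TBX5 KO 1, where 19.2% of all sites were called in exactly 1 TBX5 KO library. The remaining 4 sites (5.19%) were called in all 4 libraries, against 55.8% of all sites. No Ryr2 site was called in a TBX5 KO library without a call in both control libraries, and of all sites in the genome called in both TBX5 KO libraries, 1.91% were missing from both control libraries. With weaker peaks left out, at −log10 q of at least 5, the count was 28 of 30 sites at Ryr2, against 29.1% of all sites. With every list cut to its 61173 strongest peaks it was 22 of 29 (75.9%), against 14.8% of all sites. The other 113 sites of the full lists at Ryr2 were called in 1 control library alone, 55 in control 1 and 58 in control 2.

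The control peaks of Ryr2 were mostly weak, and weak sites were control-only more often everywhere. Within each list, peaks were ranked by −log10 p from 0 to 100, the strongest being 100. The Ryr2 peaks ran from the 0.0901 to the 90.1 percentile in control 1, with a median of 32.1, and from 1.32 to 89.7 in control 2, with a median of 26.5. The fold ranged from 1.83 to 7.92 in control 1 and from 1.84 to 6.78 in control 2. In TBX5 KO 1 the 4 peaks had percentiles of 6.29 to 56.9 and in TBX5 KO 2 the 9 peaks had 3.25 to 54.5, so in each of these lists a single peak was above the middle of its list.

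**Figure D2:**
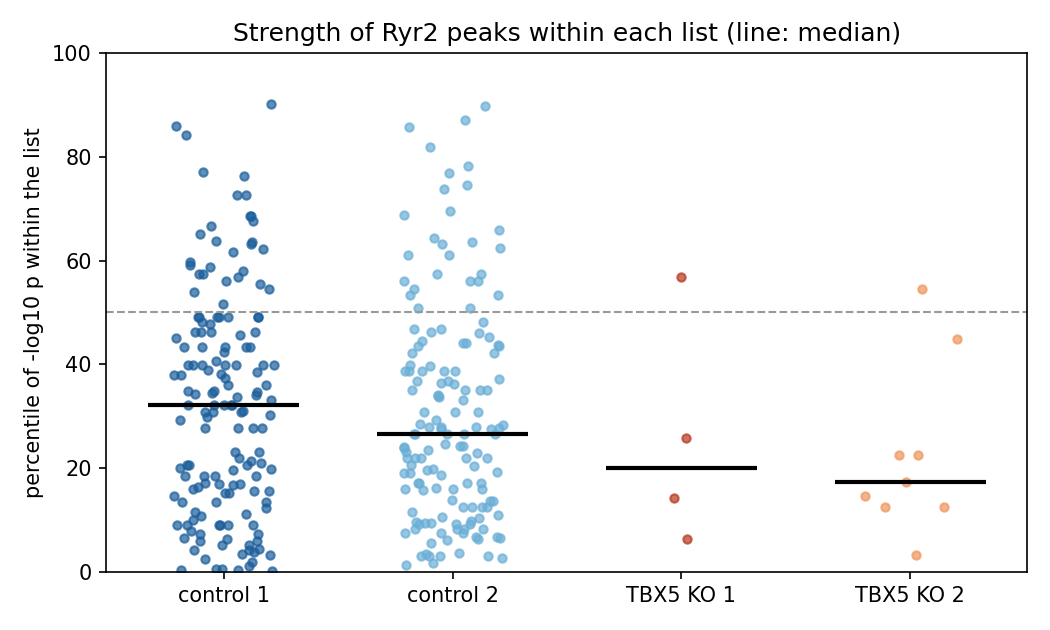
Percentile of −log10 p within its own list (vertical axis) for each peak at Ryr2, by library; the black line is the median and the dashed line marks the middle of the list. Medians were 32.1 and 26.5 in the control lists, 20.1 in TBX5 KO 1 and 17.4 in TBX5 KO 2.

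Control-only shares by rank are given for the genome and for Ryr2 side by side, as a description. When the 68137 sites were split into 10 deciles by their mean control percentile, the control-only share fell from 64.1% in the lowest to 0.426% in the highest. Shares of the whole genome applied to the deciles of the 77 Ryr2 sites give 32.2 control-only sites (41.8%), against 68 counted. In the lowest decile all 18 Ryr2 sites were control-only, and in the second lowest all 15 were, where the genome had 64.1% and 52.3%. Only 11 Ryr2 sites were in the upper 5 deciles. Of those, 4 were control-only (36.4%), against 6.72% of all sites there, and these few sites give no more than a rough share.

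The lists give no read totals, but fold and −log10 p together fix the pileup of fragments at the summit and its local background. The background of the genome recovered in this way was 10.1 fragments in control 1, 10.3 in control 2, 10.7 in TBX5 KO 1 and 13.4 in TBX5 KO 2. The median local background of the Ryr2 peaks was 1.02 and 1.04 times that of the genome in control, and equal to it in both TBX5 KO libraries. At the genome's background, the lowest pileup called anywhere was 2.08 and 2.04 times background in the control lists and 2.06 and 1.94 times in the TBX5 KO lists. The Ryr2 peaks of the control libraries had a median pileup of 2.97 and 2.92 times background, not far above these limits. An uncalled stretch may thus still carry CHD4 below about that level in the TBX5 KO libraries. The part of depth and of peak strength in the Ryr2 counts was not tested.

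In the control libraries the peaks were dense in the part of the gene near the transcription start and faded farther along it. In the first 50 kb, 60.8% of the bases lay under a peak in control 1 and 72.5% in control 2. From 50 to 100 kb the coverage was 60.1% and 64.7%, and from 100 to 150 kb it was 46.9% and 59.1%. Control 1 was thus nearly level over the first 100 kb. From 150 to 200 kb the coverage was 30.4% and 33.8%, and from 200 to 250 kb it was 9.45% and 16.5%. Beyond 250 kb no bin of 50 kb exceeded 10.2% in control 1 or 14.2% in control 2. The decline was present in each control library on its own.

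Peaks near the start were also wider and somewhat stronger. Splitting the gene at 250 kb, a point chosen after the values were seen, put 82.8% of the covered bases of control 1 and 85.9% of those of control 2 in the part near the start. The median width there was 714.5 bp and 854.5 bp, against 384 bp and 443 bp farther along. The median percentile was 37.0 and 28.2 near the start, and 18.4 and 16 farther along.

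Far more sites near the start were called in both control libraries. Of 110 sites in that part, 65 were called in both control libraries, and of the 74 sites farther along, 11 were. Peaks covered 41.5% and 49.3% of the part near the start in control 1 and 2, against 7.11% and 6.66% farther along. Dense peaks of 2 lists share a base more readily, and the part of this in the counts was not tested. The control-only counts were 57 of 65 and 11 of 11. All peaks of the TBX5 KO libraries inside the gene lay in the part near the start, 3 in TBX5 KO 1 and 7 in TBX5 KO 2, and 0 lay in the last 304 kb in either library. Over the locus as a whole, 58.3% of the control 1 sites were also called in control 2 and 57.0% the other way, which was below the 72.2% and 80.8% over all sites.

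**Figure D3:**
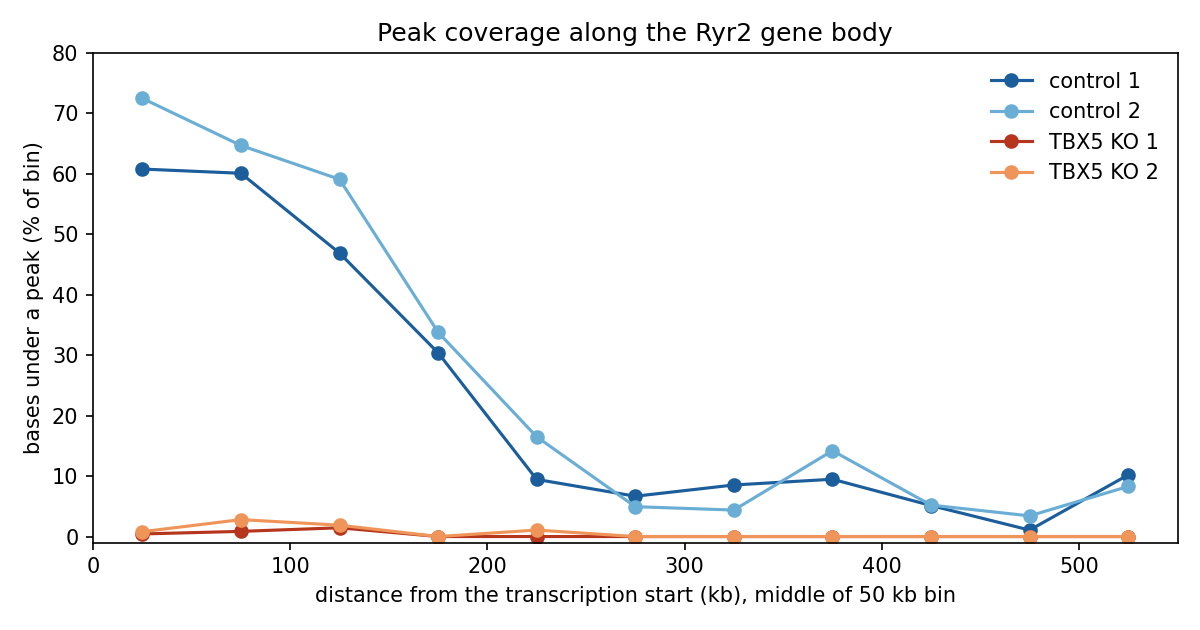
Share of bases under a peak (vertical axis, %) in bins of 50 kb along the Ryr2 gene body, by distance of the bin's middle from the transcription start (horizontal axis, kb), 1 line per library. Control coverage falls from 60.8% and 72.5% in the first bin to 9.45% and 16.5% in the bin from 200 to 250 kb, and TBX5 KO coverage is at most 2.80% in any bin.

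The 4 sites called in all libraries lay at the start, about 8 kb upstream of it, and inside the gene near 70 and 105 kb. At the site over the start, the control peaks were 4387 and 4576 bp wide, with folds of 7.92 and 5.15. The TBX5 KO peaks there were 346 and 447 bp wide, with folds of 3.08 and 2.85. Their summits lay 25 bp inside the gene in TBX5 KO 1 and 89 bp upstream of the start in TBX5 KO 2. The summit of control 1 was 41 bp upstream, whereas that of control 2 was 2435 bp inside the gene, at another point of the same wide peak. This was the strongest TBX5 KO peak of the locus in both lists, at the 56.9 and 54.5 percentile.

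The site near 70 kb, chr13:12035959-12039012, was the strongest one of control 2. Its folds were 6.21 and 6.78 in control 1 and 2 but 2.09 and 2.15 in TBX5 KO 1 and 2. The site near 105 kb, chr13:12001097-12003127, had folds of 4.50 and 4.95 in control, against 2.48 and 2.64 in TBX5 KO. The upstream site, chr13:12113830-12116543, had 4.96 and 5.50 in control, against 2.31 and 2.15 in TBX5 KO. At these last 3 sites the positions of the TBX5 KO peaks differed in how well they matched. Near 105 kb the peaks of the 2 TBX5 KO libraries overlapped, whereas near 70 kb (chr13:12036628-12037054 and chr13:12037956-12038322) and upstream (chr13:12115306-12115735 and chr13:12114634-12114870) they did not, and the wider control peaks joined them into 1 site. At each of the 4 sites both TBX5 KO folds were below both control folds. The share of all sites called in all 4 libraries that had this order was not counted.

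Pileup at the 4 retained Ryr2 sites was lower as well. In times the genome's background, the strongest peak at the start reached 8.61 and 8.06 in control, against 3.27 and 2.99 in TBX5 KO, a ratio of the means of 0.375. The ratio was 0.411 at the upstream site, 0.316 near 70 kb and 0.523 near 105 kb. Over 38022 sites called in all 4 libraries for which pileups were recovered, the median ratio was 0.645, with quartiles of 0.556 and 0.757. Their median pileups were 6.24 and 5.83 times background in control, against 3.83 and 3.81 in TBX5 KO. All 4 Ryr2 ratios lay under the lower quartile, and the one near 70 kb was lower than at all but 0.426% of these sites. Near 70 kb and upstream the peaks of the TBX5 KO libraries did not overlap, so their mean there joins different positions.

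At most sites with a TBX5 KO peak, that peak was far narrower than the site. The 9 sites with any TBX5 KO peak spanned 30 kb, of which 90.4% and 90.0% lay under control peaks and 12.9% under TBX5 KO 2 peaks. TBX5 KO 1 peaks covered 6.43% of it, but only 4 of the 9 sites had one. These shares were not computed over all sites of the genome with a TBX5 KO peak. The widest site of the locus, chr13:12027033-12034384, spanned 7.35 kb and had a single peak of 337 bp in TBX5 KO 2, which covered 4.58% of it, the smallest share of the 9. The next widest, chr13:12091377-12097655, spanned 6.28 kb and had a TBX5 KO 2 peak of 295 bp. At the other extreme, the site at chr13:11905175-11905781 had a TBX5 KO 2 peak of 537 bp, 88.5% of it, against control peaks of 479 and 360 bp. Its fold of 2.29 in TBX5 KO 2 equalled that of control 2. The 5 sites called in TBX5 KO 2 but not in TBX5 KO 1 had TBX5 KO 2 folds of 1.96 to 2.29.

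Of the 5 strongest control-only sites 3 lay in the first 50 kb, but the strongest lay near the far end of the gene. This site, chr13:11594910-11596580, lay 511 kb from the start. It had folds of 6.03 and 6.48 and percentiles of 86.0 and 87.1 in the control lists. Its summits in the control libraries were at 511.28 and 511.29 kb, and its pileup was 7.92 and 6.99 times background, close to that of the site at the transcription start. Neither TBX5 KO list had a peak there. In its decile, the second highest, 2.04% of all sites were control-only.

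The next strongest control-only site, chr13:11754948-11756141, lay 351 kb from the start among other sites, the nearest of which were called in 1 or both control libraries. Its folds were 4.50 and 3.93 and its summits lay at 351.62 and 351.61 kb. The other 3 of the 5 strongest, at 48.2, 35.3 and 6.56 kb, were wide sites of 2.82, 3.18 and 4.80 kb. Their control folds were between 3.25 and 4.52.

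Control coverage stopped past the end of the gene and went on upstream of its start. In the 100 kb past the window on the side of the last exon, 1 site lay in all 4 libraries and covered 1.17% and 1.21% in control, against 0.889% and 1.12% in TBX5 KO. The nearest site on that side, 59.4 kb outside the window, had folds of 7.08 and 7.42 in control, against 3.35 and 3.09 in TBX5 KO. On the other side, in the first 100 kb upstream of the window, peaks covered 27.0% and 27.5% in control, against 5.39% and 6.05% in TBX5 KO, and 7 of 11 sites were control-only. The site closest outside the window on that side began 7.26 kb away and was called in all 4 libraries, with folds of 7.90, 11.4, 3.76 and 4.37.

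Next along the chromosome upstream are Mtr, which encodes methionine synthase, and Actn2, which encodes the Z-disc protein alpha-actinin. They begin 74.4 and 162 kb from the start of Ryr2. At Mtr 7 of 12 control sites were control-only, and coverage was 17.9% and 19.4% in control, against 2.50% and 3.56% in TBX5 KO. At Actn2 the count was 11 of 26, and coverage was 45.9% and 54.4% in control, against 4.39% and 12.4% in TBX5 KO. The 4 genes farther on, Heatr1, Lgals8, Edaradd and Ero1b, had 1 to 3 control sites each, of which at most 1 was control-only. No other protein-coding gene of the table lay within 500 kb.

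Ryr2 is long, and its number of sites is best read beside other long genes. It had more sites in any library than any other gene and ranked 3 by sites in both control libraries. Among the 201 genes of at least 300 kb with at least 10 control sites, the median share of control-only sites was 30.8%, and Ryr2 had the highest. Close to it were Fgf12 with 14 of 16 (87.5%), Camk1d with 25 of 29 (86.2%) and Nav3 with 11 of 13 (84.6%), each with far fewer sites, and Nav3 was named after its value was seen. Among 1410 genes of any length with at least 10 control sites the median was 25%, and only Tmem163 had a higher share than Ryr2, with 16 of 16 sites. Ryr2 ranked 5 among the long genes by control coverage, at a mean of 24.1%, where the median was 4.94%.

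Some long genes with about as much control coverage had far more coverage left in the TBX5 KO libraries. The following were chosen after their values were seen, as genes close to Ryr2 in control coverage. Foxn3, which encodes a forkhead factor, had a mean coverage of 24.1% in control, like Ryr2, and of 9.43% in TBX5 KO, with 23 of 64 sites control-only. Aopep, an aminopeptidase gene, had 25.4% and 16.2%, with 3 of 46. Ryr2 had 0.504% in TBX5 KO.

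**Figure D4:**
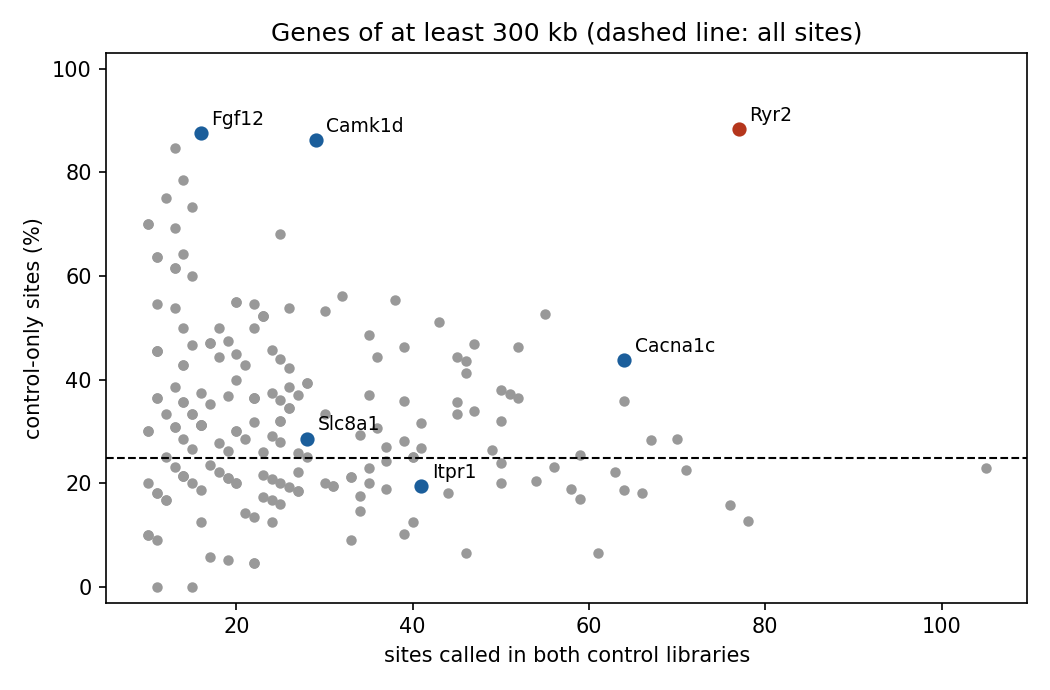
Share of control-only sites (vertical axis, %) against the number of sites in both control libraries (horizontal axis) for the 201 genes of at least 300 kb with at least 10 such sites; the dashed line is the 24.9% over all sites. Ryr2, in red, is at 77 sites and 88.3%, while Fgf12 and Camk1d have similar shares over 16 and 29 sites.

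The genes with the most similar pattern were found by the share of a gene's sites that was called in each of the 4 libraries, among 1161 genes with at least 20 sites. For Ryr2 these shares were 69.5% and 71.1% in control, against 2.11% and 4.74% in TBX5 KO. The nearest gene was Fgf12, whose product binds and tunes sodium channels, with 73.0%, 67.6%, 5.41% and 5.41%, at a Euclidean distance of 5.99 percentage points. Then came Camk1d, a calmodulin-dependent kinase gene (distance 11), Tmem163, a zinc transporter gene (12.3), Kcnj3, a gene of the acetylcholine-gated potassium channel (14.5), and Corin, which encodes the protease that processes atrial natriuretic peptide (17.0). The likeness rests on 4 libraries. It says nothing of density, since control coverage was 3.19% and 3.07% at Fgf12 and 25.1% and 26.8% at Corin.

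Among the other calcium release channels, sites at the IP3 receptor genes were mostly still called in a TBX5 KO library. The IP3 receptors are the second family of release channels of the reticulum. Itpr1 had 8 control-only sites of 41 (19.5%) and 24 called in all 4 libraries, and Itpr2 had 6 of 20. Itpr3 had 0 of 3 and Ryr1, the skeletal muscle receptor, 0 of 2. Ryr3, the third ryanodine receptor and nearly as long as Ryr2 at 586 kb, had few sites, of which 7 of 8 were control-only. Peaks covered 0.726% and 0.563% of its window in control, so it shared the share of control-only sites with Ryr2 but not the dense coverage.

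The other listed genes of the release unit had lower shares of control-only sites than Ryr2, which was itself chosen for its count. Ryr3 came close, at 87.5%. Over the 32 other genes of the release unit that were listed, 142 of 402 sites (35.3%) were control-only. This sum can count a site more than once where neighbouring windows overlap. For the 19 genes with at least 5 control sites, the median share was 32.1%, against 20% over all 4714 genes with that many. Sites inside protein-coding genes and more than 1 kb from a gene end had a share of 31.1%. The median over the 201 genes of at least 300 kb was 30.8%, so the listed genes were near these shares. The list was written with earlier results of these data known.

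In the lumen of the reticulum, Casq2, which encodes cardiac calsequestrin, had 5 of 9 control-only sites, Trdn, which encodes triadin, 2 of 7, and Asph, which encodes junctin among other products, 6 of 15. At the junction, Jph2, which encodes junctophilin, had 5 of 21, with coverage of 57.5% and 57.2% in control, against 16.2% and 24.9% in TBX5 KO. Of the channel's cytosolic partners, Fkbp1b, which encodes FKBP12.6, had a single site, called in all 4 libraries. Calm2 had 3 of 5 control-only sites and Calm3 1 of 8, both calmodulin genes. Camk2d, the main cardiac CaM kinase gene, had 9 of 28, and Akap6, which anchors protein kinase A near the channel, 11 of 26.

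The trigger and the re-uptake side were in the same range. At Cacna1c, the pore gene of the L-type channel, 28 of 64 sites were control-only, and its subunit gene Cacnb2 had 12 of 23. Slc8a1, the sodium-calcium exchanger gene, had 8 of 28. Atp2a2, which encodes the calcium pump of the reticulum, was covered over 96.4% and 95.6% of its window in control and 35.7% and 45.4% in TBX5 KO, in 2 control-only and 2 retained sites. Its inhibitor genes Pln and Sln had no control-only site, of 6 and 1. Coverage at Pln nonetheless went from 44.3% and 49.7% to 12.4% and 15.4%.

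**Figure D5:**
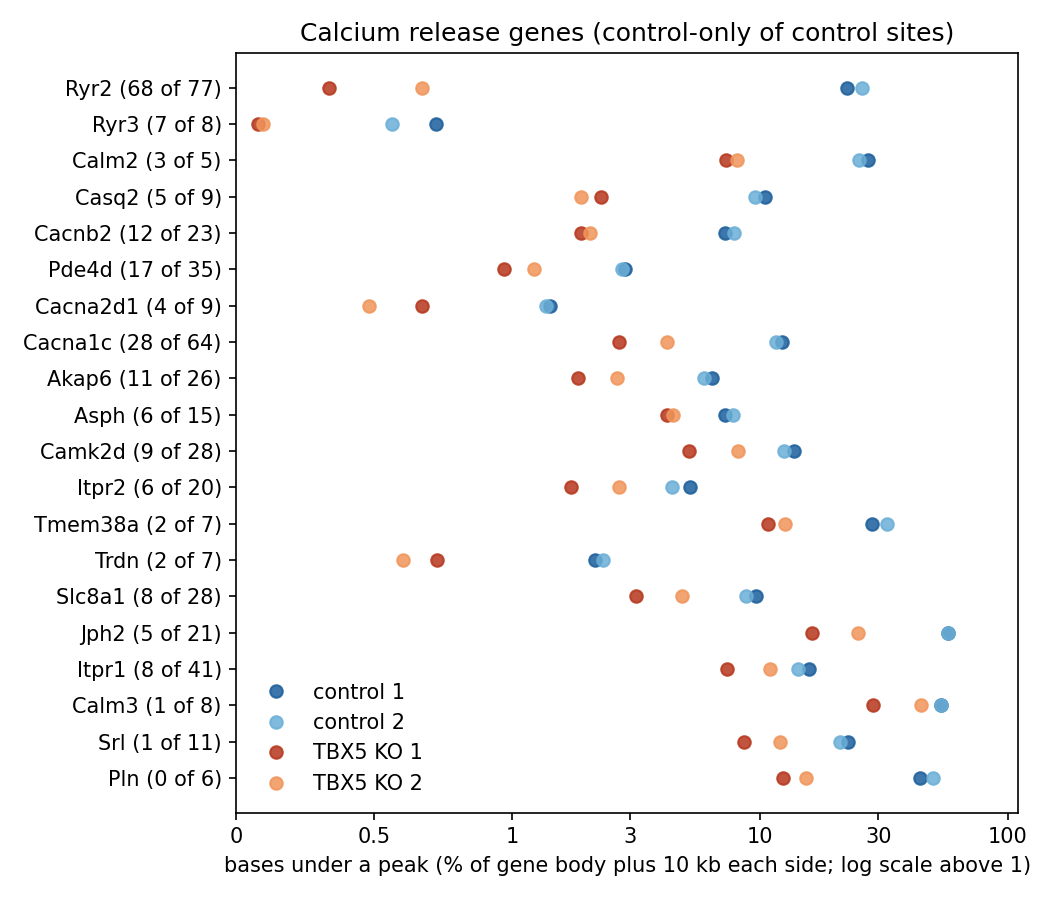
Share of bases under a peak (horizontal axis, %, gene body plus 10 kb on each side, log scale above 1) for Ryr2 and the 19 listed calcium release genes with at least 5 control sites, 1 point per library; beside each name are its control-only sites of its control sites. Both TBX5 KO points lie left of both control points for each gene shown. The whole lists differ in the same direction, by 1.75 times in covered bases, and the share of all genes with this order was not counted. The step at Ryr2, from 22.4% and 25.9% to 0.336% and 0.672%, is the widest as a ratio.

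Genes that mark atrial cardiomyocytes also had less coverage in the TBX5 KO libraries, though of the 4 given here only Bmp10, with 9 of 11, had mostly control-only sites. Myl7 had 1 of 4, and Nppa and Sln 0 of 1 each. A CHD4 peak does not measure expression, so these values place the lists and do not count cells. Coverage at Myl7, the atrial myosin light chain gene, was 59.2% and 58.1% in control, against 10.1% and 11.5% in TBX5 KO. It was 37.8% and 36.9% against 6.17% and 11.5% at Sln, 62.5% and 63.0% against 0% and 3.43% at Bmp10, an atrial growth factor gene, and 52.8% and 50% against 0% and 1.75% at Nppa. Over the whole lists the covered bases differed by 1.75 times. The part of cell composition in the Ryr2 values was not tested.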

How the data were processed

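CHD4 ChIP-seq peak lists of 4 mouse atrial libraries were used, 1 list per library. Input libraries (4) were not used here by themselves. Peaks were called by the authors with MACS2 on build mm10, and DiffBind is also named, per the submitters' processing notes. The aligner is not given in the sources used here, nor are the settings. The deposited columns hold a fold (ratio of summit pileup to local background), −log10 p, −log10 q and a score made from −log10 q. The lowest deposited −log10 q was 1.30 to 1.31. Interval and summit positions were used as the authors deposited them.

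Peaks were merged into sites by at least 1 bp, with pandas 2.3.3, NumPy 2.4.6 and SciPy 1.17.1. Genes came from a RefSeq table of GRCm38.p6, which has gene ends but no exons. Pileup and background were recovered as the whole-number pileup that gives the deposited fold and −log10 p under a Poisson model. Within 4000 peaks drawn per list, 100% were recovered. Merging and recovery were tested on simulated data.

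The gene, the lists and the alternatives were chosen with earlier results of these data known. Named sites were those in all 4 libraries, the 5 strongest control-only sites and the site at the start. Named genes were the calcium release list, neighbours within 500 kb, the 5 most similar genes and the atrial cardiomyocyte markers. Nav3, Foxn3 and Aopep were named after their values were seen. Peak sequences other than the promoter were not analysed here.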

Additional observations from a re-analysis of the deposited data

How the results depend on the processing

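The direction at Ryr2 was the same under each alternative other than exchanging the groups. With the groups exchanged, as the genotype labels have them, 0 of 4 sites (0%) were particular to the group now called control, and the ratios of TBX5 KO to control were 23.2 for peaks and 47.9 for covered bases, in place of 0.0432 and 0.0209. With each list cut to its 61173 strongest peaks, Ryr2 kept 59 and 60 control and 4 and 8 TBX5 KO peaks. There were then 22 control-only sites of 29 (75.9%, against 14.8% of all sites), and the ratios were 0.101 and 0.0324. At −log10 q of at least 5 there were 28 control-only sites of 30 (29.1% of all sites), and the ratio of covered bases was 0.0102. With 50 kb on each side the ratios were 0.0740 and 0.0469. Pairing by replicate number (replicate block) gave a mean of 95.7% of control peaks without a TBX5 KO peak of the same number, 97.4% and 93.9% in the 2 pairs, against 52.6% and 42.2% over all peaks. No test was made, so whether the numbers pair the samples decides no call. Leaving out 1 library gave 68 to 144 control-only sites and a share of 88.3% to 94.8%. The highest counts were those without a control library, 139 without control 1 and 144 without control 2, because sites then need a call in 1 control library. The ratio of peaks was then 0.0266 to 0.0598 and that of covered bases 0.0139 to 0.0279, the lowest without TBX5 KO 2 and the highest without TBX5 KO 1. Sites called in all libraries numbered 4, but 2 at −log10 q of at least 3, 1 at 5 or by summits within 250 bp, and 9 without TBX5 KO 1. They numbered 3 in the gene body with no flank and 6 with 50 kb on each side. The other alternatives kept the control-only count within 1.5 times. Depth limits what a missing call means, since pileup under about 2.06 or 1.94 times background was not called in the TBX5 KO libraries.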
